A study of Mus musculus with 36 samples.

Results

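The 10 genes followed here are the mouse Notch ligands Dll1, Dll3, Dll4, Jag1 and Jag2, the receptors Notch1, Notch2 and Notch3, and the fringe enzymes Lfng and Mfng. They were chosen by name, as the rows of the deposited count and abundance tables whose Ensembl gene ID maps to these symbols, which are 10 of 51912 gene IDs. All 10 were present, and all 10 passed the filter on low counts that left 17990 genes for testing.

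Notch signalling passes between cells that touch. A ligand of the Delta or Jagged family on one cell binds a Notch receptor on its neighbour, proteases then cut the receptor, and the freed inner part enters the nucleus, where it joins the DNA-binding protein Rbpj and switches on genes of the Hes and Hey families. Those genes hold back the proneural factors, which themselves switch on Dll1, so that in the embryonic spinal cord a cell that starts to become a neuron keeps its neighbours as progenitors. Fringe enzymes add a sugar to the receptor in the Golgi and alter which ligands it answers to.

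Polyadenylated RNA was sequenced from HM1 cells, a mouse embryonic stem cell line, that were led through a neuromesodermal progenitor stage towards spinal motor neurons. There were 12 time points (days 0, 0.5, 1, 1.5, 2, 2.5, 3, 3.5, 4, 5, 6 and 7) with 3 replicates each, 36 libraries in all. Every library after day 0 had 100 nM retinoic acid and 500 nM SAG, a Hedgehog pathway agonist that acts on Smoothened, and the day 0 libraries, labelled control, had received neither. All 36 shared the same cell line, the removal of feeder cells, growth with bFGF, and a step before day 0 with bFGF, the Wnt pathway activator CHIR99021 and the receptor kinase inhibitors SB431542 and DMH1. No untreated culture of the same age was in the design, so the effects of retinoic acid, of SAG and of time in culture cannot be told apart. The labels call the replicates biological without saying that they were separate cultures, so the p-values cover the variation among these samples, part of which may be technical. The cells were not sorted, so fewer cells of a type and less RNA per cell cannot be told apart.

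Library totals ran from 26567321 to 35757989 counts, and mitochondrial genes took 0.949% to 1.92% of them. The labels give every library the same cell type, neural progenitors. The markers went with that only in part. The summed level of 5 caudal epiblast markers was 1.05 to 2.06 TPM at day 7, against 549.9 to 604.2 TPM at day 0. The 6 neuron markers reached 2643 to 2841 TPM at day 7. The 7 neural progenitor markers summed to 343.4 to 360.4 TPM at day 0, most of it Vim (217.0 ± 7.61 TPM), while Sox1, Fabp7 and Pax6 were at 4.16 ± 0.264, 2.77 ± 0.603 and 1.10 ± 0.104 TPM. Sox2, Sox3 and Nes, the rest of the list, made up the remainder of that sum. One day 0 library, replicate 2, stood furthest from its replicates (a chi-square per degree of freedom of 49.9 against replicate 1). Leaving it out changed none of the 10 members' calls below.

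Stretches before the starts of Lfng, Dll1 and Dll4 are printed first, because Dll1 rose within 12 hours, Lfng stood above its day 0 libraries from day 1 on, and Dll4 had the largest rise of the set. RefSeq promoter windows (GRCm38.p6, 250 bases before and 50 after each start) were found for 9 of the 10 members in 10 windows, with 2 for Dll1. Capitals mark the motifs searched on both strands. CANNTG is the E-box, bound by proneural and other basic helix-loop-helix factors, and the form CAGATG of it was also searched alone, as was the form CAGCTG. The core that Rbpj binds is TGGGAA, and the letters TATAAA were searched as the promoter box of that name. A match to either E-box form is also a match to CANNTG, and a CACGTG in Lfng overlaps the TGGGAA beside it. Only bases outside the exons of coding genes are shown, 5′ to 3′ on the strand of the gene.
Lfng, chr5:140607091-140607319, plus strand: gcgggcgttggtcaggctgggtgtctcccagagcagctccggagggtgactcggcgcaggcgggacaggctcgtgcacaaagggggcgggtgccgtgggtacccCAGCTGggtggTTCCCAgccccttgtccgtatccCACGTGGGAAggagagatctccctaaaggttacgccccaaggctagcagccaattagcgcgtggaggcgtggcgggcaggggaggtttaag
Dll1, upstream start, chr17:15376933-15377182, minus strand: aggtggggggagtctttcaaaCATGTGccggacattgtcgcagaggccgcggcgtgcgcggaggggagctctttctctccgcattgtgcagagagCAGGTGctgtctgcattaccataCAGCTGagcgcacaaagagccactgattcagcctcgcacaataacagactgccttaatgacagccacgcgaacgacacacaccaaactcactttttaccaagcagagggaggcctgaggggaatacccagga
Dll1, downstream start, chr17:15375977-15376073, minus strand: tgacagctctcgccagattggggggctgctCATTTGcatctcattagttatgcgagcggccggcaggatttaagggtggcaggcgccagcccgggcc
Dll4, chr2:119325534-119325783, plus strand: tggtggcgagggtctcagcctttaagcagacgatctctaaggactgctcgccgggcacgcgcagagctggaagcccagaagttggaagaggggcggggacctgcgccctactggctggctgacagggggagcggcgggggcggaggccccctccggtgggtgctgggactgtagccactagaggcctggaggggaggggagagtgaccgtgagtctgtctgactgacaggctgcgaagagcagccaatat
In the Lfng window TGGGAA begins 108 bases before the RefSeq start on the gene's strand, and its reverse complement begins 135 bases before it. The printed Lfng stretch stops short of that start, where a coding gene's exon in GENCODE begins. Lfng held the only window of the 10 with TGGGAA, which was present in 25.6% of 32851 mouse windows of this length. CANNTG was in 5 of the 10 windows against 72.3% of all windows, CAGCTG in 4 of the 10 against 16.3%, and CAGATG and TATAAA in 0 of the 10 against 17.2% and 13.6%. The upstream Dll1 stretch held 3 E-boxes and the downstream one 1, while the Dll4 stretch held none of the letters searched. These counts include matches in exon bases that are not printed, and a match is a description of the letters only.

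Levels are the deposited TPM, a length-corrected share of the transcripts in a library, so they can be compared between genes. Values at each time are given for replicates 1, 2 and 3 or as mean ± SD (n = 3). Dll1 is the main Notch ligand of spinal cord progenitors that are turning into neurons. It lies on chromosome 17 (ENSMUSG00000014773, 15367354 to 15376872, minus strand, GRCm38). Dll1 stood at 18.2, 19.8 and 20.9 TPM at day 0, 46.2, 45.1 and 44.9 TPM at day 0.5, 60.6, 59.1 and 61.7 TPM at day 2.5, 82.4, 80.0 and 75.01 TPM at day 4, 75.8, 70.4 and 72.3 TPM at day 5, and 36.6, 36.6 and 35.6 TPM at day 7. The gene was thus already above its day 0 level in all 3 libraries after 12 hours, and it was low again at the end, though still above day 0. Its mean was highest at day 4, at 79.1 ± 3.76 TPM, where only day 5 overlapped it, and lowest at day 0, at 19.6 ± 1.34 TPM. In CPM, the counts over the library total scaled by TMM, its highest mean was at day 2. A noncoding gene on the other strand, A930024N18Rik, shares 20.5% of the Dll1 exon bases and was at 0.01 to 1.92 TPM, and whether counting used strand is not given in the sources used here.

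Dll3 is a divergent Delta protein that, unlike Dll1, does not activate receptors on neighbouring cells and acts inside the cell that makes it. It lies on chromosome 7 (ENSMUSG00000003436, 28293553 to 28302238, minus strand). Its course differed from that of Dll1 by an early drop. Dll3 was at 18.1, 25.3 and 24.1 TPM at day 0, 11.4, 10.1 and 9.08 TPM at day 0.5, 10.5, 8.47 and 6.37 TPM at day 1, 19.4, 18.1 and 19.8 TPM at day 1.5 and 45.3, 47.1 and 47.1 TPM at day 2. It then stayed high, with 45.8, 45.8 and 48.0 TPM at day 2.5, 55.8, 47.3 and 59.6 TPM at day 3 and 49.8, 39.9 and 45.6 TPM at day 5, and ended at 11.6, 13.4 and 12.1 TPM at day 7. The mean of day 1 was the lowest of the course, and the levels of days 2 to 5 were the highest, apart from a dip to 37.6 ± 1.69 TPM at day 3.5. The highest mean, 54.3 ± 6.28 TPM at day 3, overlapped days 2.5, 4 and 5, and without replicate 3 the highest mean was at day 4.

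Dll4 is a Delta ligand best known from blood vessel growth, and it is also made in some spinal cord progenitors. It lies on chromosome 2 (ENSMUSG00000027314, 119325784 to 119335962, plus strand). It was the lowest of the 5 ligands at day 0, at 0.26, 0.30 and 0.24 TPM (16 to 20 counts per library). Dll4 then stood at 1.12, 1.53 and 1.82 TPM at day 0.5, 5.60, 4.54 and 4.62 TPM at day 1, 11.3, 10.3 and 11.6 TPM at day 1.5 and 19.5, 14.2 and 15.6 TPM at day 2. After that it was 12.3, 12.4 and 15.2 TPM at day 2.5, 5.36, 6.03 and 6.11 TPM at day 5 and 6.07, 5.06 and 5.58 TPM at day 7. No library of 1 time point overlapped those of the next up to day 2, so the climb held in every library, and the ratio of its highest mean to its lowest, 61.6, was the largest of the 10 members. The overlapping opposite-strand gene Gm14207 shares 5.56% of the Dll4 exon bases and was itself highest at day 2, at 6.97 ± 1.73 TPM.

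Jag1, a Jagged ligand that in the spinal cord is made in progenitor domains apart from those with Dll1, lies on chromosome 2 (ENSMUSG00000027276, 137081456 to 137116644, minus strand). Jag1 was at 7.31, 8.01 and 7.82 TPM at day 0, 17.8, 17.4 and 17.3 TPM at day 0.5, 9.79, 9.62 and 7.99 TPM at day 1.5, 20.8, 16.5 and 21.9 TPM at day 2, 13.8, 11.8 and 14.6 TPM at day 2.5, 29.6, 27.4 and 25.7 TPM at day 4, 17.7, 22.4 and 20.4 TPM at day 5 and 15.7, 14.8 and 15.9 TPM at day 7. Its means went up, down and up again more than once. The libraries of day 1.5 were back near the day 0 level, and the day 4 libraries stood above those of every other time point, at a mean of 27.6 ± 1.93 TPM.

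Jag2, the other Jagged ligand, lies on chromosome 12 (ENSMUSG00000002799, 112907819 to 112929776, minus strand). It moved least among the ligands. Its lowest mean was 11.9 ± 0.718 TPM at day 1.5 and its highest 20.1 ± 0.871 TPM at day 0, a ratio of 1.68. The libraries read 20.5, 20.8 and 19.1 TPM at day 0, 15.6, 16.1 and 16.7 TPM at day 0.5, 17.8, 16.6 and 18.2 TPM at day 2.5, 13.2, 14.5 and 13.0 TPM at day 5 and 16.3, 15.7 and 15.4 TPM at day 7. Jag2 was the 1 member with its highest mean at day 0, although days 2 and 3 overlapped it. In CPM its lowest mean was at day 6.

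**Figure D1:**
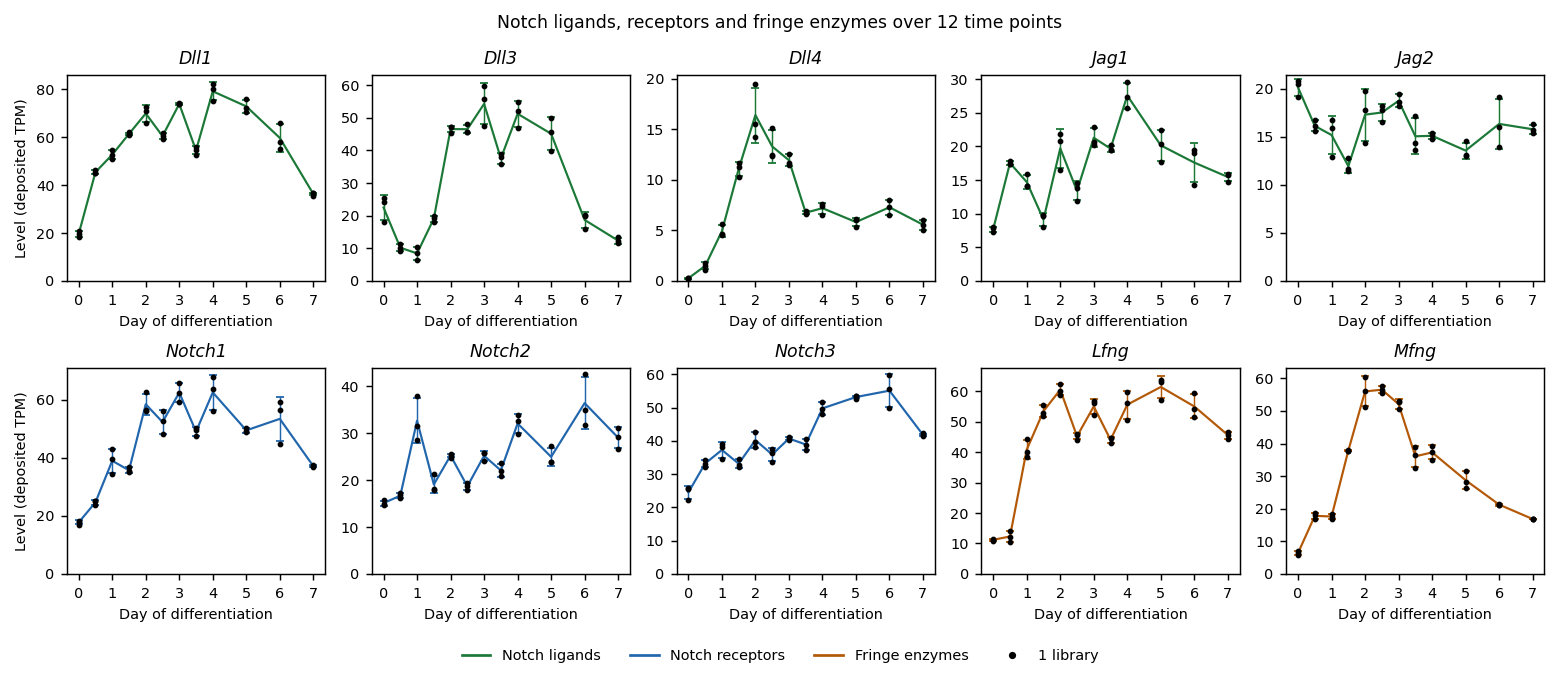
Level of each of the 10 genes in deposited TPM (vertical axis, from 0) against the day of differentiation (horizontal axis). Dots are single libraries, lines join the means and bars are the SD of 3 replicates. Dll4 starts at 0.267 TPM and is highest at day 2, Dll1 and Jag1 are highest at day 4, and Jag2 is highest at day 0.

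Of the receptors, Notch1 is the one most studied in neural progenitors, where it keeps them from becoming neurons. It lies on chromosome 2 (ENSMUSG00000026923, 26457903 to 26516663, minus strand). Notch1 was at 17.0, 17.9 and 18.4 TPM at day 0, 25.05, 25.2 and 23.8 TPM at day 0.5, 56.1, 62.6 and 56.5 TPM at day 2, 56.2, 52.5 and 48.2 TPM at day 2.5, 67.8, 56.0 and 63.8 TPM at day 4, 50.3, 49.4 and 48.7 TPM at day 5 and 37.5, 36.7 and 37.2 TPM at day 7. Its libraries were well above day 0 at every later time. From day 2 to day 6 its means moved between 49.0 and 62.5 TPM. The libraries of day 3.5 lay below those of days 3 and 4, and those of day 5 below those of day 4. The highest mean, 62.5 ± 6.00 TPM at day 4, overlapped days 2, 2.5, 3 and 6. Without replicate 1 the highest mean was at day 3, as it was in CPM. The opposite-strand gene 0610009E02Rik shares 7.50% of the Notch1 exon bases and was at 0.3 to 2.44 TPM.

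Notch2, a receptor of many tissues including neural progenitors, lies on chromosome 3 (ENSMUSG00000027878, 98013527 to 98150361, plus strand). It was at 15.0, 14.7 and 15.7 TPM at day 0, 17.2, 16.1 and 16.8 TPM at day 0.5, 37.9, 31.5 and 28.6 TPM at day 1, 18.1, 21.2 and 17.9 TPM at day 1.5, 19.4, 17.9 and 18.8 TPM at day 2.5, 23.9, 27.2 and 23.8 TPM at day 5, 34.9, 42.6 and 31.8 TPM at day 6 and 29.2, 31.2 and 26.7 TPM at day 7. The day 1 libraries stood above those of both neighbouring time points. The highest mean, 36.4 ± 5.57 TPM at day 6, overlapped days 1 and 4, and in CPM the highest was at day 1. Gm42820, on the same strand, shares 541 exon bases with Notch2 and was at 0.05 to 0.45 TPM.

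Notch3, a receptor known from vessel walls and also made in neural progenitors, lies on chromosome 17 (ENSMUSG00000038146, 32120820 to 32166852, minus strand). It was at 22.2, 25.97 and 25.4 TPM at day 0, 33.1, 32.2 and 34.4 TPM at day 0.5, 37.6, 36.4 and 33.8 TPM at day 2.5, 52.7, 53.4 and 53.5 TPM at day 5, 49.8, 59.9 and 55.6 TPM at day 6 and 41.6, 42.2 and 41.7 TPM at day 7. Of the 3 receptors it was the highest at day 0 and moved least, with a ratio of 2.25 between the highest mean (55.1 ± 5.05 TPM at day 6) and the lowest (24.5 ± 2.01 TPM at day 0). Without replicate 2, and in CPM, the highest mean was at day 5. The opposite-strand gene Gm17276 shares 488 exon bases with Notch3 and was at 0 to 0.11 TPM.

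Lfng is the fringe that in the spinal cord is confined to some progenitor domains and elsewhere drives the segmentation clock. It lies on chromosome 5 (ENSMUSG00000029570, 140607320 to 140615545, plus strand), with the stretch printed above ending just before this GENCODE start. It was at 10.9, 11.6 and 11.2 TPM at day 0, 12.1, 10.6 and 14.2 TPM at day 0.5, 44.1, 40.0 and 38.2 TPM at day 1, 58.8, 62.4 and 60.1 TPM at day 2, 46.0, 44.1 and 45.4 TPM at day 2.5, 63.8, 57.2 and 63.1 TPM at day 5 and 44.4, 45.7 and 46.7 TPM at day 7. The day 0.5 libraries overlapped those of day 0, and the day 1 libraries lay above both, with a mean 3.32 times that of day 0.5. From day 1.5 on the means stayed between 44.0 and 61.3 TPM. The highest, at day 5, overlapped days 2, 4 and 6. Without replicate 1 or replicate 3 the highest mean was at day 2, and in CPM it was at day 1.5.

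Mfng, a second fringe enzyme of the same family, lies on chromosome 15 (ENSMUSG00000018169, 78755882 to 78773475, minus strand). It was at 5.74, 6.58 and 6.98 TPM at day 0, 18.7, 18.0 and 16.8 TPM at day 0.5, 18.5, 17.6 and 16.8 TPM at day 1, 37.8, 37.7 and 38.0 TPM at day 1.5, 60.5, 51.3 and 56.1 TPM at day 2, 55.4, 56.6 and 57.6 TPM at day 2.5, 31.7, 26.2 and 28.3 TPM at day 5 and 16.9, 16.8 and 16.8 TPM at day 7. It went up in 2 stretches, before day 0.5 and between days 1 and 2, while the libraries of days 0.5 and 1 overlapped. The mean was highest at day 2.5, at 56.5 ± 1.09 TPM, where day 2 overlapped it, and lowest at day 0, at 6.43 ± 0.633 TPM. Without replicate 2, and in CPM, the highest mean was at day 2.

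Between neighbouring time points, all 10 members were higher in TPM at day 2 than at day 1.5, with no overlap of their 3 and 3 TPM values. Among all 17990 genes 37.1% were higher in that way and 18% lower (55.2% in all). The mean ratios of that step ran from 1.13 for Lfng to 2.44 for Dll3. In the earlier steps 7 members were higher and 2 lower at day 0.5 against day 0 (28.5% and 28.1% of all genes, 56.6% in all), 6 and 1 at day 1 against day 0.5 (24.7% and 24.8%, 49.5% in all), and 5 and 3 at day 1.5 against day 1 (24.2% and 23.6%, 47.8% in all). At day 2.5 against day 2, 0 members were higher and 5 lower (28.1% and 20.5%, 48.6% in all), and at day 3 against day 2.5 there were 6 and 1 (26.7% and 14.6%, 41.3% in all). At day 3.5 against day 3 the count was 0 higher and 9 lower (22.6% and 23.5%, 46.1% in all), the exception being Notch3, whose values overlapped. At day 4 against day 3.5 it was 7 and 0 (32.7% and 11.3%, 44% in all). The late steps had 1 higher and 6 lower at day 5 against day 4 (20.8% and 21.3%, 42.1% in all), 2 and 3 at day 6 against day 5 (31.3% and 17.7%, 49% in all), and 0 and 8 at day 7 against day 6 (14.3% and 14.4%, 28.7% in all). Jag1 and Jag2 were the members that overlapped in that last step. These counts rest on TPM, which moves with the make-up of each library. In CPM 9 members had a higher mean at day 2 than at day 1.5, and Lfng had 74.1 ± 2.99 CPM at day 2, against 75.4 ± 1.46 CPM at day 1.5.

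Day 0.5 was compared with day 0, the first 12 hours after retinoic acid and SAG were added. Dll1, Dll4, Jag1, Notch1, Notch3 and Mfng rose, Dll3 and Jag2 fell, and Notch2 and Lfng did not pass the test. Thus 6 members were called higher and 2 lower, and among all genes tested 27.6% were called higher and 26.7% lower (54.3% in all). Log2 fold changes come from the counts in edgeR's quasi-likelihood test, with Benjamini-Hochberg adjustment over all genes and an approximate SE, which is the absolute log2 fold change over the root of F. The largest rise was that of Dll4, at 2.45 ± 0.23 (edgeR adjusted p = 3.89e-11), followed by Mfng at 1.40 ± 0.08 (7.86e-17), Jag1 at 1.29 ± 0.08 (2.09e-15) and Dll1 at 1.24 ± 0.05 (1.21e-20). The receptors Notch1 and Notch3 rose by less, at 0.47 ± 0.07 (9.08e-07) and 0.44 ± 0.05 (2.14e-08). Dll3 fell by 1.17 on the log2 scale (approximate SE 0.11, edgeR adjusted p = 1.08e-10) and Jag2 fell by 0.24 (SE 0.06, 0.00183). Notch2 had a log2 fold change of 0.16 ± 0.08 (0.0891), although its TPM values did not overlap, and passed with no filter on low counts and in a fit to the 6 libraries alone. Lfng had 0.17 ± 0.08 (0.0645) and passed with no filter and without day 0.5 replicate 2 (0.26, edgeR adjusted p = 0.00591).

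Day 2.5 was compared with day 0.5, the interval in which neuron markers came up. Dll3, Dll4, Notch1, Lfng, Mfng and, by a small step, Dll1 rose, and Jag1 fell. That makes 6 members higher, 1 lower and 3 that did not pass (Jag2, Notch2 and Notch3), beside 34.9% of all genes called higher and 34.7% lower (69.6% in all). Dll4 again led, at a log2 fold change of 3.04 ± 0.13 (edgeR adjusted p = 8.93e-21), and Dll3 followed at 2.11 ± 0.11 (3.22e-18), so that Dll3 was more than back above its day 0 level. Both fringes rose, Lfng by 1.70 ± 0.07 (3.91e-21) and Mfng by 1.46 ± 0.06 (3.16e-20). Notch1 rose by 0.93 ± 0.07 (7.1e-14), while Notch2 stood at 0.03 (0.782) and Notch3 at -0.03 (0.576). Dll1 rose by 0.24 ± 0.05 (1.95e-05), and Jag1 fell by 0.59 (SE 0.08, 2.42e-08). The fall of Jag1 was to a day 2.5 level below both whole days around it, and its means of 19.7 ± 2.86 TPM at day 2 and 21.3 ± 1.42 TPM at day 3 were above the 17.5 ± 0.250 TPM of day 0.5. In mean TPM 7 members lay below both whole days at day 2.5 (29.8% of all genes), and Mfng above both (23.9%). In CPM Dll3 was not below both and Mfng not above both, while Jag2 was below both. Among the 7 were Notch2 and Notch3. Notch2 averaged 18.7 TPM there, against 25.2 TPM at both days 2 and 3 and 16.7 TPM at day 0.5. Notch3 averaged 35.9 TPM, against 40.25 and 40.7 TPM at days 2 and 3 and 33.2 TPM at day 0.5. Whether Notch1 differed from the other receptors was not tested. With limma on log2(TPM + 1) the share of calls that were higher was 60.9%, against 50.2% in the counts, and all genes shifted by a median of 0.134 with log2(TPM + 0.1), so a direction smaller than that is open to the scaling. This touches Jag2 and Notch3, whose sign was positive on the TPM scale, and Notch3 also without day 2.5 replicate 3 (0.0100).

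Day 5 was compared with day 2.5, after the motor neuron markers had passed their highest sum. The members split. Dll1, Jag1, Notch2, Notch3 and Lfng rose, and Dll4, Jag2, Notch1 and Mfng fell, which is 5 higher and 4 lower beside 33.3% and 31.1% of all genes (64.4% in all). Dll4 and Mfng, which had risen in both earlier comparisons, now fell by the most, Dll4 by 1.32 (SE 0.11, edgeR adjusted p = 7.86e-13) and Mfng by 1.03 (SE 0.06, 2.95e-16). Jag1 rose by 0.56 ± 0.08 (6.44e-08), Notch3 by 0.44 ± 0.05 (8.8e-09), Notch2 by 0.31 ± 0.08 (0.000954), Lfng by 0.31 ± 0.06 (2.92e-05) and Dll1 by 0.14 ± 0.05 (0.00611). The 5 members that rose all had day 2.5 means below those of days 2 and 3, and in mean TPM they stood less far above those days, or not above them. Jag1 averaged 20.15 TPM at day 5, against 19.7 TPM at day 2 and 21.3 TPM at day 3, and Notch2 averaged 24.98 TPM at day 5, against 25.2 TPM at both. The day 5 mean of Dll1 lay between those of days 2 and 3, and the day 5 values of Lfng overlapped those of day 2. Notch3 averaged 53.2 TPM at day 5, against 40.25 TPM at day 2 and 40.7 TPM at day 3. In CPM the day 5 means of Dll1, Jag1 and Notch2 lay below those of both day 2 and day 3. That of Lfng lay between them, and that of Notch3 above both. Day 5 was not tested against those days. Jag2 fell by 0.48 (SE 0.06, 6.42e-08). The fall of Notch1, by 0.20 (SE 0.07, 0.0105), did not pass without day 2.5 replicate 1 (-0.14, 0.105) or on the TPM scale (-0.08, 0.422), and its TPM values overlapped. Dll3 stood at -0.17 ± 0.09 (0.124) and passed without day 5 replicate 1 (-0.27, 0.0221) and with no filter. The share of calls that were higher was 51.7% in the counts and 64.5% with log2(TPM + 1), where all genes shifted by a median of 0.122 at a pseudocount of 0.1.

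Day 7 was compared with day 5, the last 48 hours. Most members fell. Dll1, Dll3, Jag1, Notch1, Notch3, Lfng and Mfng were lower, Jag2 was higher, and Dll4 and Notch2 did not pass, which is 7 lower and 1 higher beside 29.5% and 28.7% of all genes (58.3% in all). Dll3 fell by 1.99 (SE 0.11, edgeR adjusted p = 5e-17) and Dll1 by 1.10 (SE 0.05, 1.31e-19). For these ligands, as for the other members that fell, the TPM values of the days compared did not overlap. Mfng fell by 0.85 (SE 0.07, 8.71e-13), Jag1 by 0.61 (SE 0.08, 1.79e-08), Notch1 by 0.53 (SE 0.07, 5.84e-08), Lfng by 0.51 (SE 0.06, 8.89e-09) and Notch3 by 0.43 (SE 0.05, 1.66e-08). Dll4 stood at -0.15 (0.259) and Notch2 at 0.11 (0.227). The rise of Jag2, at 0.16 ± 0.07 (0.0316), was lost when day 5 replicate 1 or 3 or day 7 replicate 2 or 3 was left out and on the TPM scale (0.21, 0.0804), where Notch2 passed instead (0.21, 0.0462). The share of calls that were higher was 49.3% in the counts and 61.3% with log2(TPM + 1).

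**Figure D2:**
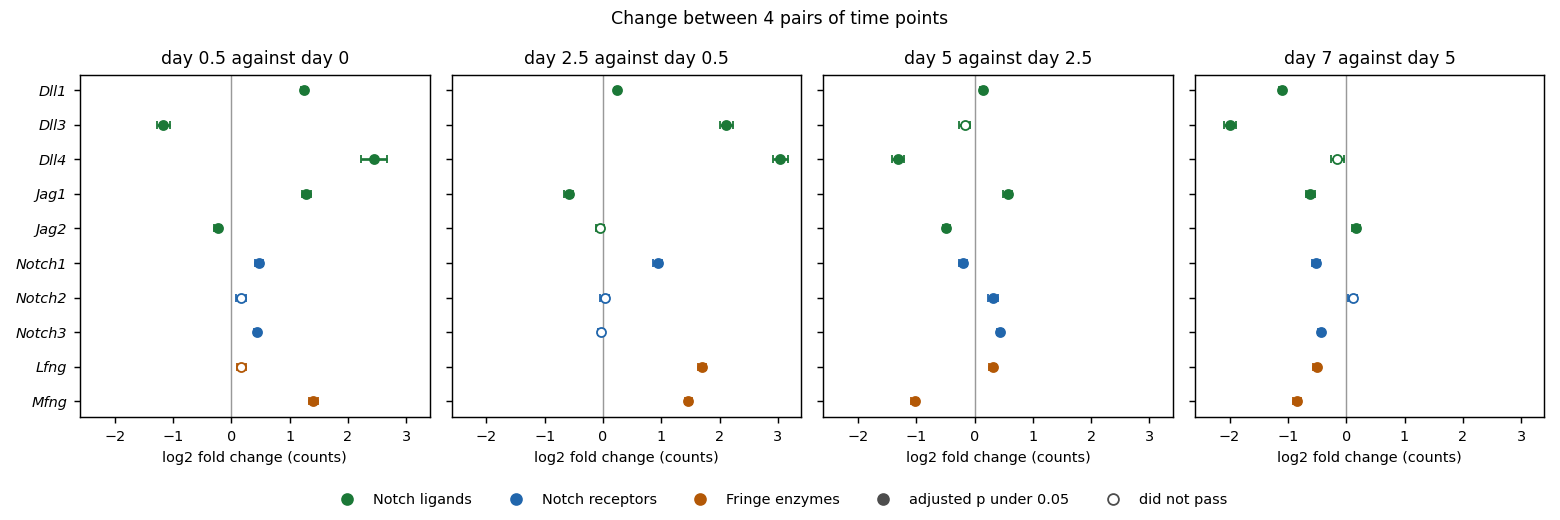
Log2 fold change of each member from the counts (horizontal axis) in the 4 comparisons, with the later time point over the earlier one. Bars are the approximate SE, filled points had an adjusted p under 0.05 and open points did not pass. Dll4 has the largest rise in the first 2 panels (2.45 and 3.04), and Dll3 and Dll1 have the largest falls in the last (-1.99 and -1.10).

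The make-up of the ligand pool changed with time. Dll1 made up 28.0% ± 1.18 of the summed TPM of the 5 ligands at day 0, 50.04% ± 0.150 at day 0.5, 55.0% ± 2.22 at day 1, 40.0% ± 0.769 at day 2.5, 46.2% ± 0.512 at day 5 and 42.5% ± 0.339 at day 7 (SD, n = 3 each). It was the largest share at every time except day 0, where Dll3 held 31.9% ± 3.27 and Jag2 28.8% ± 2.72, and those 3 shares overlapped in their SDs. Dll3 was down to 8.73% ± 1.50 at day 1, up at 30.8% ± 0.551 at day 2.5, and at 14.5% ± 1.15 at day 7. Jag1 and Jag2 together were the remainder with Dll4, whose highest mean share was 9.84% ± 0.586 (day 1.5). At day 7 Jag2 (18.5% ± 0.386) and Jag1 (18.1% ± 0.758) had shares that overlapped. The summed ligand level was lowest at day 0, at 70.2 ± 5.18 TPM, and highest at days 3 and 4, at 180.1 ± 6.21 and 180.2 ± 10.4 TPM.

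Among the 4 receptors, here with Notch4, Notch3 held the largest share at day 0.5 (44.0% ± 0.985) and Notch1 at day 3 (45.4% ± 1.16). At day 5 Notch3 was again ahead, at 39.8% ± 0.767, with Notch1 at 37.0% ± 0.684. Notch2 held 29.3% ± 1.57 at day 1 and 16.2% ± 0.859 at day 2.5. Among the 3 fringe enzymes, Rfng, the family member outside the 10, held 50.5% ± 1.70 at day 0, Lfng 51.6% ± 0.440 at day 1, Mfng 41.8% ± 0.916 at day 2.5, Lfng again 47.0% ± 1.35 at day 5 and Rfng 45.5% ± 0.596 at day 7. The leading fringe transcript by mean share thus changed 4 times in the course, but Mfng led at day 2.5 alone. On the whole days around it Lfng led, with 42.1% ± 2.15 at day 2 and 38.3% ± 1.13 at day 3. Mfng held 38.9% ± 2.41 and 36.3% ± 0.305 on those days. These shares are of transcripts and say nothing of protein.

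**Figure D3:**
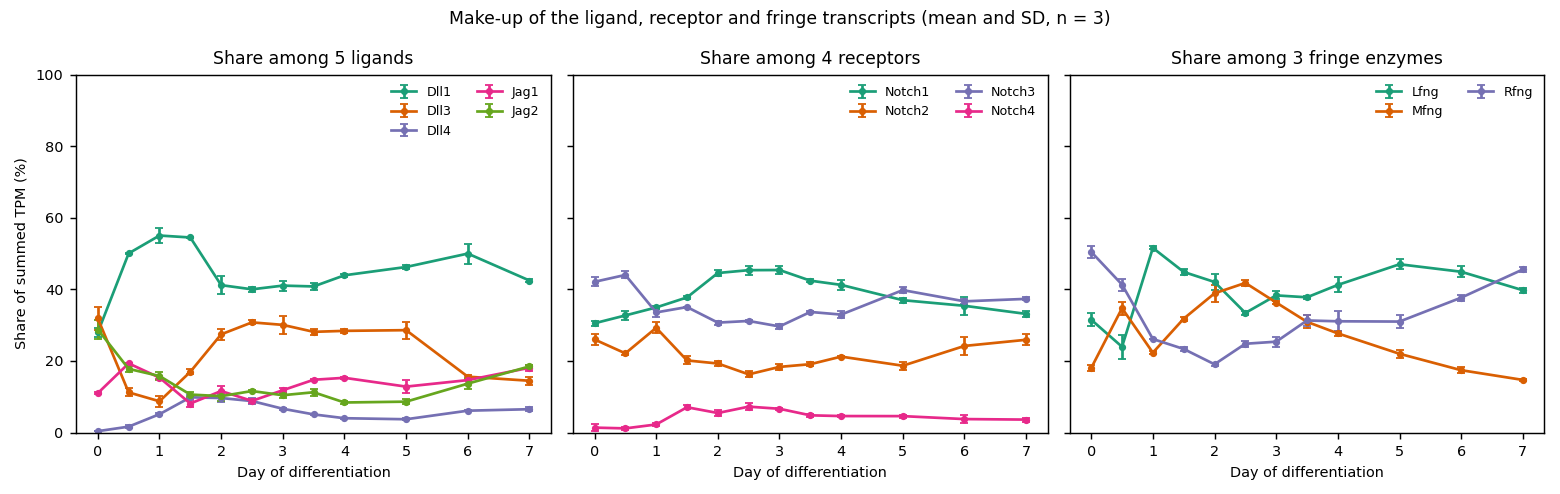
Share of summed TPM in percent (vertical axis, 0 to 100) against the day of differentiation for 5 ligands, 4 receptors and 3 fringe enzymes; points are means and bars SD of 3 replicates. Dll1 is the largest ligand share from day 0.5 on. The leading fringe is Rfng at day 0, Lfng at days 1 and 2, Mfng at day 2.5 alone, Lfng again at day 3 and Rfng at day 7.

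From 5 to all 10 of the members had a lower mean TPM in a half-day sample than on both days around it. At day 3.5 all 10 members had a mean TPM below those of both day 3 and day 4, at day 2.5 7 did so relative to days 2 and 3, and at day 1.5 5 did so relative to days 1 and 2. Among all genes tested 41.8%, 29.8% and 37.2% lay below both neighbours at those times, and 23.2%, 23.9% and 23.9% above both. These counts rest on TPM. In CPM several members lay otherwise. At day 1.5 Lfng, at 75.4 CPM, was above days 1 and 2 (55.2 and 74.1 CPM). At day 2.5 Dll3, at 58.1 CPM, was not below day 2 (57.7 CPM). Jag2, at 41.0 CPM, was there below days 2 and 3 (42.6 and 43.0 CPM). Mfng had 50.57 CPM at day 2.5 and 50.58 CPM at day 2, so it was not above both neighbours. At day 3.5 Dll4 and Mfng were not below day 4. Dll4 had 13.6 CPM at day 3.5 and 13.5 CPM at day 4, and Mfng had 31.6 and 29.7 CPM. In a contrast of days 1.5, 2.5 and 3.5 with the whole days around them, added after the values were seen, 8 members were lower and Mfng was higher, beside 25.4% and 27.9% of all genes (53.3% in all). Jag1 was lower by the most, at a log2 difference of -0.52 ± 0.04 (edgeR adjusted p = 3.92e-12), then Notch2 at -0.39 ± 0.04 (5.57e-09) and Notch1 at -0.27 ± 0.04 (3.4e-07). Dll4 stood at -0.02 (0.766). The call of Mfng, 0.08 ± 0.03 (0.0484), was lost with median-of-ratios scaling, DESeq2, no filter, the TPM scale and the replicate block (adjusted p 0.0591), and without replicate 2 or replicate 3, and that of Dll3, -0.14 ± 0.05 (0.0333), without replicate 2 or replicate 3. The share of calls that were higher was 52.4% in the counts and 37.2% with log2(TPM + 1). Days 0.5 and 2.5 are half-day samples and enter the comparisons above, and the part of the half-day offset in them was not tested. The medium was changed daily, and the hour of each harvest is not given in the labels.

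**Figure D4:**
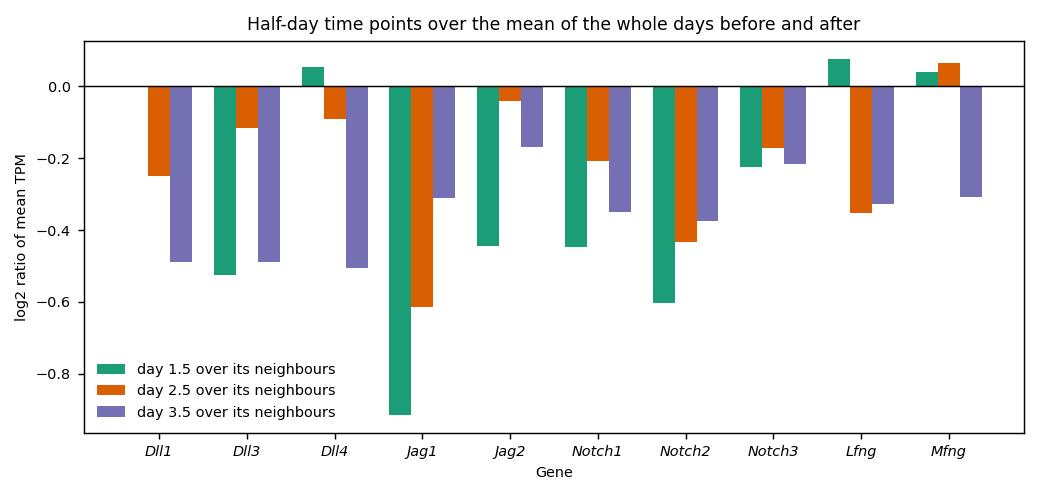
Log2 ratio of the mean TPM at days 1.5, 2.5 and 3.5 to the average of the whole-day means before and after (vertical axis) for each member. Bars below 0 mean that the half-day level was lower; Jag1 has the lowest bar, -0.91 at day 1.5, and all 10 bars of day 3.5 are below 0.

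The pathway around the members was followed through 51 other genes in 7 lists, all of which passed the filter. In the first 12 hours 25 rose, 13 fell and 13 did not pass, beside 27.6% of all genes called higher and 26.7% lower (54.3% in all). All 6 targets rose, with a median log2 fold change of 1.90 beside 0.46 for the 10 members and 0 for all genes. Hes5, the neural target that keeps progenitors dividing, was at 150 ± 15.6 TPM at day 0.5 and 4.00 ± 0.762 TPM at day 0, a log2 fold change of 5.32 ± 0.13 (edgeR adjusted p = 3.61e-26). Hey2 rose by 2.93 ± 0.17 (3.19e-16), Heyl by 2.43 ± 0.30 (2.08e-08), Hey1 by 1.37 ± 0.10 (2.44e-13), Hes1 by 0.81 ± 0.06 (1.3e-13) and Nrarp, a target that in turn dampens the receptors, by 0.72 ± 0.08 (6.04e-10). Heyl was low at both times, at 0.157 ± 0.107 TPM at day 0 and 0.917 ± 0.350 TPM at day 0.5. Of the 4 genes of ligand endocytosis 3 fell, among them Mib1, the ubiquitin ligase that ligands need to signal, by 0.21 (SE 0.05, 0.000288). Mib1 did not pass on the TPM scale (-0.05, 0.314). Among pathway genes reaching 1 TPM at either time, the largest fall was that of Aph1c, a part of gamma-secretase, by 1.80 (SE 0.28, 1.34e-06). Rbpj was higher by 0.16 ± 0.04 (0.00239) and Rfng by 0.24 ± 0.06 (0.000753), while Numb, which inhibits Notch, had -0.08 ± 0.05 (0.153) and Notch4 0.48 ± 0.26 (0.115). Dlk1, a Delta-like protein without the domain that binds receptors, rose by 0.43 ± 0.16 (0.0213) and lost its call with the replicate block (0.0506), on the TPM scale (0.21, 0.29), and when day 0 replicate 1 or 2 or day 0.5 replicate 2 or 3 was left out.

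At day 2.5 against day 0.5, 30 of the 51 rose, 10 fell and 11 did not pass, beside 34.9% and 34.7% of all genes (69.6% in all). The targets no longer moved as 1 group, with 3 higher and 2 lower. Hey1 rose by 2.52 ± 0.08 (edgeR adjusted p = 1.31e-24), Nrarp by 1.62 ± 0.07 (1.55e-20) and Heyl by 1.31 ± 0.19 (2.19e-07), Hes5 fell by 0.81 (SE 0.09, 8.71e-10), and Hes1 fell by 0.14 (SE 0.06, 0.0222), a call lost when day 0.5 replicate 1 or day 2.5 replicate 3 was left out and with a positive sign on the TPM scale (0.05). Hey2 stood at -0.27 ± 0.13 (0.0714). Notch4, a receptor of endothelial cells, rose by 3.78 ± 0.17 (7.57e-20), Dlk1 by 1.26 ± 0.13 (1.29e-10) and Rfng by 0.51 ± 0.06 (7.62e-10). The largest rise was that of Dner, a neuronal membrane protein reported to bind Notch, by 4.08 ± 0.22 (1.58e-17), and the largest fall that of Dtx3l, a relative of Deltex, by 1.22 (SE 0.11, 1.45e-11). Rbpj, Mib1 and Numb rose by 0.34, 0.26 and 0.22 (adjusted p 3.89e-08, 1.47e-05 and 6.62e-05).

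At day 5 against day 2.5, 28 rose, 13 fell and 10 did not pass, beside 33.3% and 31.1% of all genes (64.4% in all). Of the 10 proteases 8 rose and 0 fell, and of the 12 nuclear genes 3 rose and 7 fell. The targets split, 3 higher and 3 lower. Heyl rose by 1.31 ± 0.16 (edgeR adjusted p = 6.93e-09), Hey1 by 0.91 ± 0.06 (2.2e-14) and Hes1 by 0.57 ± 0.05 (4.98e-11), Hes5 fell by 1.33 (SE 0.10, 6.62e-14), Hey2 fell by 1.18 (SE 0.14, 1.13e-08) and Nrarp fell by 0.21 (SE 0.06, 0.00445). Nrarp lost its call without day 5 replicate 2 (0.0557). Dner was again the largest rise, at 3.51 ± 0.10 (1.17e-24), next to Dlk1 at 3.16 ± 0.09 (1.36e-24), while Notch4 fell by 0.87 (SE 0.13, 3.09e-07). Numb and Rbpj fell by 0.21 and 0.14 (0.000141 and 0.00533), but did not pass on the TPM scale, and Mib1 stood at -0.10 (0.0771), with the other sign there (0.09). Rfng rose by 0.14 ± 0.05 (0.0205), a call lost when day 2.5 replicate 3 or day 5 replicate 1 or 2 was left out.

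At day 7 against day 5, 21 rose and 21 fell, with 9 that did not pass, beside 28.7% and 29.5% of all genes (58.3% in all). Of the targets 5 fell and 1 rose. Hes5 fell by 1.93 (SE 0.12, edgeR adjusted p = 5.67e-15) to 11.9 ± 1.92 TPM at day 7, against 42.5 ± 6.84 TPM at day 5. Nrarp fell by 1.72 (SE 0.07, 2.97e-20), Heyl by 0.84 (SE 0.15, 1.51e-05), Hey1 by 0.60 (SE 0.06, 7.63e-10) and Hes1 by 0.40 (SE 0.05, 1.02e-07), while Hey2 rose by 0.51 ± 0.15 (0.00396). Of the 6 other receptors and ligand-like proteins 5 rose, led by Dlk2 at 2.205 ± 0.22 (3.06e-10) and with Dlk1 at 0.52 ± 0.07 (3.56e-07), and Notch4 fell by 0.50 (SE 0.14, 0.00193). Rfng rose by 0.31 ± 0.05 (7.95e-06), Numb fell by 0.16 (SE 0.05, 0.00342), and Mib1 (-0.09, 0.105) and Rbpj (-0.06, 0.232) did not pass. An opposite-strand gene shares 31.8% of the Hes5 exon bases (0 to 1.22 TPM), and another 79.4% of those of Nrarp (0.02 to 0.85 TPM). Parp9 shares 458 exon bases with Dtx3l (1.46 to 5.48 TPM) and Abcc10 shares 51 with Dlk2 (4.48 to 9.87 TPM). Gm46367 shares 166 with Numb (0 to 0.11 TPM), Gm17098 28 with Aph1c (0 to 0.19 TPM) and Mir5126 77 with Dner (0 TPM). The values of these pathway genes are uncertain, as are those of Dll1, Dll4, Notch1, Notch2 and Notch3 for the overlaps given above.

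Markers of other cell types moved with some members in part of the course. The 10 endothelial markers summed to 11.8 to 12.2 TPM at day 0, 17.3 to 23.97 TPM at day 0.5, 69.8 to 115 TPM at day 2, 77.1 to 148 TPM at day 2.5, 59.3 to 75.8 TPM at day 5 and 57.8 to 63.8 TPM at day 7, with none at 0 in all 3 libraries of any time. Of these markers 7 rose and 2 fell at day 0.5 against day 0, 9 rose and 1 fell at day 2.5 against day 0.5, and 9 fell and 0 rose at day 5 against day 2.5. In these comparisons 54.3%, 69.6% and 64.4% of all genes were called. Dll4 and Notch4 rose, or in the last case fell, in the same intervals apart from Notch4 in the first. At other times the courses parted. The endothelial sum was 43.5 to 51.7 TPM at day 1 and 41.55 to 47.5 TPM at day 1.5, where Dll4 averaged 4.92 and 11.1 TPM. At day 3 the sum was 119 to 139 TPM, and Dll4 averaged 11.96 TPM, against 16.4 TPM at day 2. The part of endothelial cells in the levels of Dll4 and Notch4 was not tested. The 6 mural markers were at 88.6 to 96.5 TPM at day 0, 14.9 to 16.1 TPM at day 1.5 and 134.8 to 247.7 TPM at day 7, and their part in the level of Notch3 was not tested. The 8 neurogenic markers summed to 46.6 to 48.7 TPM at day 0, where Neurog1 was at 0, to 393 to 440 TPM at day 3 and to 147 to 161 TPM at day 7. All 8 rose at day 2.5 against day 0.5 and all 8 fell at day 7 against day 5, as Dll1, Dll3, Notch1, Lfng and Mfng did. Among all genes 34.9% were called higher in the first of these comparisons and 29.5% lower in the second. In the other comparisons they moved less alike. At day 0.5 against day 0, 5 neurogenic markers rose and 2 fell, beside 27.6% and 26.7% of all genes. Dll1, Notch1 and Mfng rose there, Dll3 fell and Lfng did not pass. At day 5 against day 2.5, 1 neurogenic marker rose, 4 fell and 3 did not pass, beside 33.3% and 31.1% of all genes. Dll1 and Lfng rose there, Notch1 and Mfng fell and Dll3 did not pass. The 6 paraxial mesoderm markers, the other tissue with Dll1, Dll3 and Lfng, summed to 7.85 to 8.63 TPM at day 0, 13.8 to 15.8 TPM at day 0.5 and 3.39 to 3.73 TPM at day 7, with Msgn1 at 0 from day 1 on. Their part, and that of neurogenic cells, in the levels of the members was not tested.

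**Figure D5:**
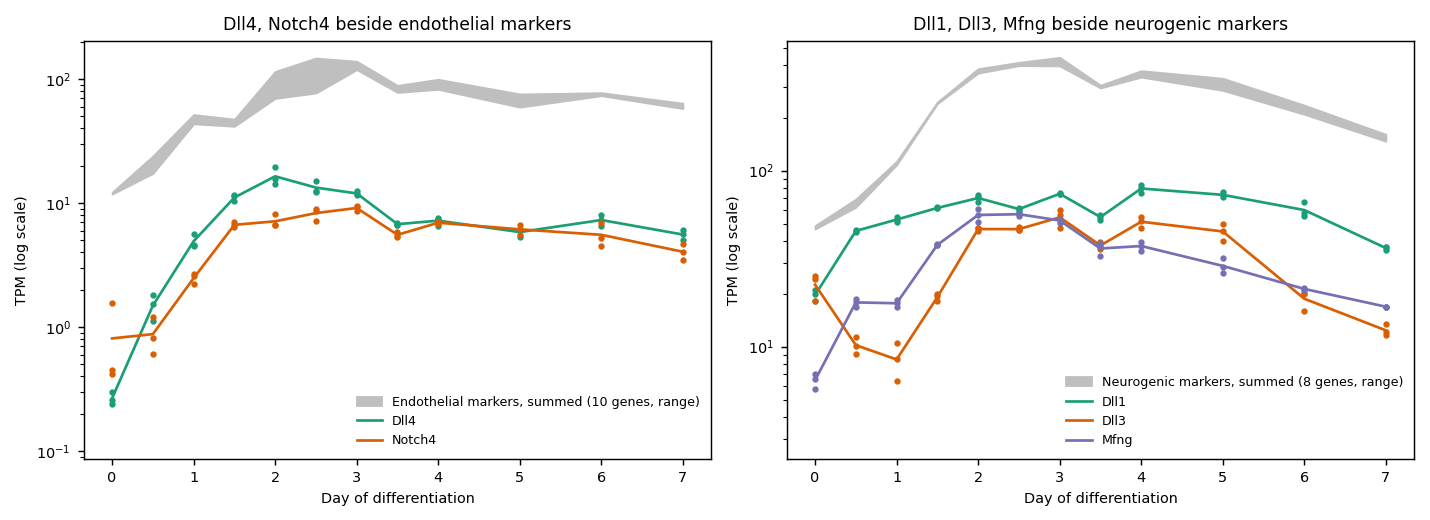
Level in TPM on a log axis against the day of differentiation. The grey bands give the lowest to highest summed level of 10 endothelial markers (left) and 8 neurogenic markers (right) over 3 libraries, lines are gene means and dots single libraries. Dll4 is highest at day 2, at 16.4 TPM, where the endothelial sum is 69.8 to 115 TPM. Between days 1 and 1.5 Dll4 climbs from 4.92 to 11.1 TPM while the ranges of the endothelial sum overlap. Dll3 has its lowest mean, 8.45 TPM, at day 1 while the neurogenic sum is rising.

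Likeness of course was described by Pearson's r of mean log2(TPM + 1) over the 12 time points, which are not independent and share libraries' scaling, so no p is given. Among the members, Dll4 and Mfng were the most alike (r = 0.91), then Dll4 and Lfng (0.89), Notch1 and Lfng (0.89) and Dll1 and Notch1 (0.88). Notch2 and Notch3 reached 0.81. Jag2 was unlike the rest, with its lowest r against Dll1 (-0.43) and its highest against Dll3 (0.17). Outside the set, among genes reaching 5 TPM, the 4 courses most like that of Dll1 were those of H1fx (0.96), Scrib (0.96), Faap20 (0.95) and Foxp4 (0.95). For Dll3 they were Mapkapk5 (0.96), Slco4a1 (0.93), Lhx4 (0.92) and Rai14 (0.92), and for Dll4 Rpia (0.96), Tcf7l2 (0.96), Neurod4 (0.94) and Unc5a (0.94). Jag1 was most like Meis3 (0.87), Daglb (0.86), Tsta3 (0.85) and Mxra7 (0.83), and Jag2 most like Dgka (0.90), Acad10 (0.81), Sat1 (0.80) and Bcl6b (0.79). For the receptors these genes were Rnf216 (0.99), Acads (0.98), Zfp113 (0.98) and Accs (0.97) for Notch1, Igf1r (0.92), Dtna (0.91), Zfp521 (0.91) and Sgce (0.90) for Notch2, and Rhpn1 (0.96), Rassf2 (0.96), Ctla2a (0.95) and H19 (0.95) for Notch3. Lfng was closest to Rilpl1 (0.98), Kif21a (0.98), Tsc22d3 (0.97) and Nuak1 (0.97), and Mfng to Ppp1r14a (0.98), Sept1 (0.97), Btbd17 (0.97) and Glis2 (0.96). Ranked by Spearman's rho, 0 to 2 of each member's 4 genes stayed among the top 4, so these names depend on the measure. With 12 points and 12000 genes compared, high values of r are common.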

How the data were processed

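Per the labels' protocols, Qiagen RNeasy Plus Micro columns yielded the RNA and the KAPA mRNA chemistry the libraries. Per the submitters' processing notes, bcl2fastq 2.20.0, RSEM and GRCm38 were used. No aligner, annotation release or strand setting was given in the sources used here. RSEM's expected counts for each gene were deposited by the authors, 6.87% of them not whole, with a second table of TPM, which the authors' quantification corrected for transcript length and library total.

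Expected counts were rounded to whole numbers. edgeR 4.0.16 in R 4.3.3 kept 17990 of 32047 genes with at least 1 count (filterByExpr by time point). All 36 libraries entered 1 quasi-likelihood model with 12 groups, TMM factors of 0.924 to 1.06 and 24 residual degrees of freedom. A gene was called at a Benjamini-Hochberg adjusted p under 0.05 over all genes tested. A fold change on the log2(TPM + 1) scale understates the change of low genes. Replicates differed by more than sampling noise (chi-square per degree of freedom 3.00 to 49.9), 0 pairs were identical, and the fit was tested on simulated data. Coordinates count from 1 and come from GENCODE M21.

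The members, the pathway and marker lists, the comparisons and the rule for named genes were chosen with earlier results of these data known. Named were all 10 members, a panel of 11 pathway genes, the largest rise and fall per comparison among called pathway genes reaching 1 TPM, and for each member the 4 genes reaching 5 TPM with the most similar course. Hey2, the 1 target outside the panel, was named after its values were seen. Replicate numbers were checked as pairs by the correlation of same-numbered libraries' deviations over 10334 genes. These were 0.177 to 0.276 for day 0.5 against day 0 and 0.137 to 0.288 for day 2.5 against day 0.5, all above the threshold of 0.1. Libraries with different numbers reached 0.013 and 0.066 in these comparisons, but 0.284 for day 5 against day 2.5. Values of this size therefore do not settle whether the numbers mark pairs. Same-numbered libraries had -0.191 to 0.022 for day 5 against day 2.5 and -0.007 to 0.090 for day 7 against day 5, where they share only a number.

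Each fit was repeated with DESeq2 1.42.0, with size factors by median of ratios, unfiltered, on the compared libraries only, with a block for the replicate number, without each library in turn, and with limma 3.58.1 on log2 of TPM plus 1 or 0.1.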

Additional observations from a re-analysis of the deposited data

How the results depend on the processing

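The 4 counts of genes called and that of the half-day contrast stayed within 1.5 times under every alternative run. Of 682 recomputed values for the members and the counts of calls, 647 kept their direction and their side of the threshold, or for counts stayed within that range. The exceptions among the members, with log2 fold changes, are these, and their causes were not tested. At day 0.5 against day 0, Notch2 passed with no filter (0.18) and with only the 6 libraries compared (0.17), and Lfng passed with no filter (0.18) and ran from 0.0786 to 0.26 with 1 library left out. At day 2.5 against day 0.5, none of the sign changes passed the threshold. Notch2 was -0.0087 with median-of-ratios scaling and -0.0087 with DESeq2, Jag2 was 0.11 at a TPM pseudocount of 1 and 0.12 at 0.1, and Notch3 was 0.11 at both and ran from -0.0685 to 0.0100 with 1 library left out. At day 5 against day 2.5, Dll3 passed with no filter (-0.17) and ran from -0.27 to -0.0631 with 1 library left out, and Notch1 did not pass on the TPM scale (-0.0768 and -0.0781) and ran from -0.26 to -0.14. At day 7 against day 5, Jag2 did not pass on the TPM scale (0.21 and 0.22) and ran from 0.14 to 0.18, and Notch2 passed there (0.21 and 0.22). In the half-day contrast Mfng did not pass with median-of-ratios scaling (0.0622), DESeq2 (0.0623), no filter (0.0794), the replicate block (0.0781) or the TPM scale (0.0125 and 0.0154) and ran from 0.0555 to 0.12 with a replicate number left out, Dll3 from -0.15 to -0.12 and Dll4 from -0.10 to 0.0695. Among other pathway genes the TPM scale changed the sign of Numb at day 0.5 against day 0 (0.0406 and 0.0418), Hes1 at day 2.5 against day 0.5 (0.0459 and 0.0467), Mib1 at day 5 against day 2.5 (0.0872 and 0.0883) and Rbpj at day 7 against day 5 (0.10 and 0.10).

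The replicate block ended the calls of Dlk1 at day 0.5 against day 0 (adjusted p 0.0506) and Mfng in the half-day contrast (0.0591), and no other call of a gene named here. With it 9754, 12511, 11554 and 10435 genes were called in the 4 comparisons in order, against 9764, 12527, 11593 and 10481 without. For the last pair of comparisons the samples share only a number. Day 0 holds 16 to 20 counts of Dll4 per library, the lowest of any member, and these few counts limit how precisely its first rise can be measured.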
